A study of Mus musculus with 28 samples.

Results

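The TNF superfamily comprises the cytokines related to tumour necrosis factor and their receptors. Its genes were taken from the 47719 genes of each deposited table by symbol: Tnf, Lta, Ltb, Fas, Fasl, Ltbr, Cd27, Cd40, Cd40lg, Cd70 and every symbol that starts with Tnfsf or Tnfrsf and a number. This gave 41 genes, of which 17 encode ligands and 24 encode receptors. The rule reads symbols only.

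Most ligands of the family are made as membrane proteins that signal to a neighbouring cell or are cut free, and they bind as trimers. Receptors with a death domain, such as the TNF receptor encoded by Tnfrsf1a and the Fas receptor, can recruit caspases. Receptors without one bind TRAF adaptors and switch on NF-kB and MAP kinases, which the receptor encoded by Tnfrsf1a also does. In fatty liver with inflammation the family is known for hepatocyte death, for the recruitment of leukocytes and for the ductular reaction, in which cells with bile duct features multiply.

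Liver RNA of 28 male C57BL/6 mice was sequenced in 7 groups of 4. Mice about 6 weeks old ate, for 26 weeks, a NASH diet (nonalcoholic steatohepatitis, a fatty and inflamed liver) whose fat gave 40% of the calories and which held 22% fructose and 2% cholesterol by weight, and were then dosed by mouth once a day for 4 weeks. On that diet, 1 group received obeticholic acid (OCA) at 25 mg/kg, 1 received the vehicle of OCA, 1 received the vehicle of tropifexor, and 3 received tropifexor, here called low (0.1 mg/kg), mid (0.3 mg/kg) and high (0.9 mg/kg). The lean control group ate a diet whose fat gave 10% of the calories, without fructose or cholesterol. OCA is a modified bile acid, tropifexor (LJN452) has no bile acid skeleton, and both are agonists of FXR, the nuclear receptor for bile acids. The labels do not say which dose belongs to which name, so the smallest was taken as low and the largest as high. The labels' treatment field of both vehicle groups lists the drug while their titles say vehicle, and the titles were followed. Mice of 1 strain and sex were used, so the values hold for that strain and sex.

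The tables hold 1 FPKM value per group (fragments scaled to transcript length and library size) and none per mouse. The level in each animal and the overlap of groups can therefore not be given, and the spread between mice enters only through the authors' Cuffdiff test. The depth per sample is unknown. A gene was called, and is said below to have risen or fallen, when its status was OK and the deposited q (the p adjusted for all genes tested) was under 0.05. Standard errors of log2 fold changes were computed from the deposited fold change and test statistic and divided by a factor of 2.03 to 2.05, the median over genes that sets them to the deposited p in each table. For single genes they need not match it, and those of Fasl, Ltbr, Tnfrsf13b and Tnfrsf9 against lean control are too wide for the deposited p. Where 2 effects are compared, the normal test uses the standard error before that division, and results with the divided, narrower one are named as such. Hepatocyte markers (Alb, Apoa1, Ttr, Cps1, Hnf4a) were tested in each of the 6 tables of NASH vehicle against lean control and drug against vehicle, with summed levels of 41416 to 70926 FPKM over the groups, which fits the label of liver.

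Cuffdiff tested 21 of the 41 genes in all 10 tables, 30 in at least 1 table and 11 in none. The 11 untested genes were 8 ligands (Lta, Cd40lg, Cd70, Tnfsf4, Tnfsf8, Tnfsf9, Tnfsf11 and Tnfsf18) and 3 receptors (Tnfrsf8, Tnfrsf13c and Tnfrsf17), and the deposited tables list them between 0 and 0.157 FPKM. Of the 30 tested genes, 21 were called in at least 1 table and 9 in none. Those 9 were Cd27, Tnfrsf18, Tnfrsf1a, Tnfrsf22, Tnfrsf25, Tnfrsf26, Tnfsf10, Tnfsf13 and Tnfsf14. A gene at a low level enters the test only where 1 of the groups is high enough, so counts over tested genes are not counts over the family.

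The highest levels were those of receptors. Tnfrsf1a, the main TNF receptor of parenchymal cells, lay between 82.2 and 143 FPKM over all deposited tables and was called in none of them. Ltbr, the lymphotoxin beta receptor, lay between 41.6 and 70.3 FPKM. The next levels were those of Fas at 9.72 to 16.4 FPKM, Tnfrsf1b (the second TNF receptor) at 8.28 to 13.0 FPKM and the ligand Tnfsf12 (TWEAK) at 6.01 to 14.1 FPKM in the authors' deposited tables. Tnf itself lay between 0.210 and 1.17 FPKM. After the tables against lean control were put on 1 scale through their shared lean group, Tnfrsf1a ranked highest of the 41 genes in all 7 groups. Tnfrsf12a, the receptor of TWEAK, ranked 6 in OCA livers and in both vehicle groups, 2 at the low, 3 at the mid and 3 at the high tropifexor dose, and 7 in lean livers. Because there is no value per mouse, neighbours in this order cannot be tested against each other.

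**Figure D1:**
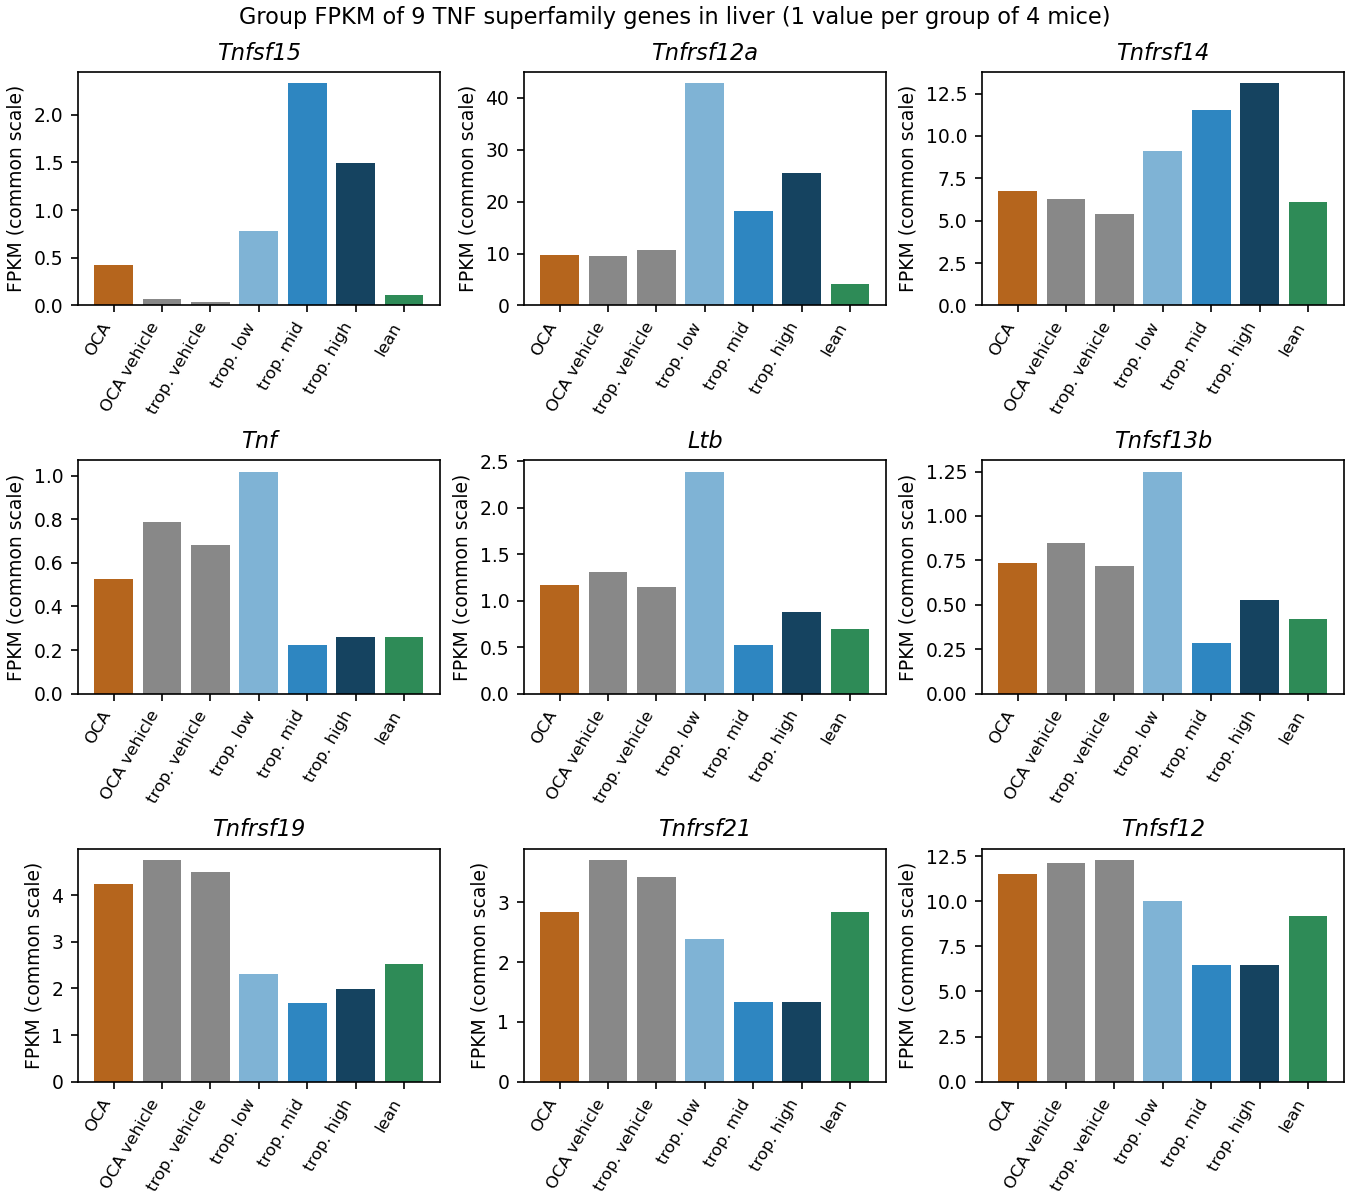
Group levels of 9 genes of the family in liver, 1 bar per group of 4 mice, as FPKM (vertical axes, each from 0) after the authors' tables were put on 1 scale; groups run along the horizontal axes and no error bars can be drawn because the tables hold no value per mouse. Tnfsf15 was 2.33 FPKM at the mid dose and 0.0387 FPKM in tropifexor vehicle livers, and Tnfrsf12a was 42.8 FPKM at the low dose, above the other 6 groups.

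On the NASH diet, genes of the family were higher or not called. In OCA vehicle livers against lean control, 27 of the genes were tested and 14 rose, where 18.0% of all 15774 genes tested were called, 11.4% higher and 6.56% lower. In tropifexor vehicle livers against the same lean control, 26 were tested and 9 rose, against 20.6% of all genes tested, 12.1% higher and 8.53% lower. No gene of the family was called lower by Cuffdiff in either table, and 0 were lower at an unadjusted p under 0.05. The median log2 fold change of the tested genes of the family was 0.91 in OCA vehicle and 0.47 in tropifexor vehicle livers, beside 0.02 and 0.01 for all genes tested in those tables. Tnf, Ltb, Cd40, Tnfrsf11a, Tnfrsf12a and Tnfrsf19 rose in both vehicle groups, which share the lean control group. Compared between the vehicle groups, the diet effect differed for 0 of 25 genes of the family by a normal test (0.0986% of all genes), and for 0 with the narrower standard error (0.381% of all genes). At an unadjusted p under 0.05, 0 genes of the family passed with either error.

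Calls against vehicle varied in number and direction between the drug groups, and so did the share of all genes called. With OCA against its vehicle, 1 of 28 tested genes of the family was called, higher with OCA, beside 4.04% of all genes tested in that table (1.81% higher and 2.23% lower). At an unadjusted p under 0.05, 1 was higher and 7 were lower. At the low tropifexor dose, 3 of 28 tested genes rose and 1 fell against vehicle, where 11.2% of all genes were called, 6.03% higher and 5.20% lower. At the mid dose, 3 of 27 rose and 10 fell, where 27.5% of all genes were called, 11.8% higher and 15.7% lower. At the high dose, 3 of 27 rose and 6 fell, where 25.4% of all genes were called, 9.93% higher and 15.5% lower. The median log2 fold change of tested genes of the family was -0.21 with OCA, and 0.10 at the low, -0.72 at the mid and -0.23 at the high dose of tropifexor. All genes tested had medians between -0.05 and 0.02 over these drug and diet tables. The 3 tropifexor groups share 1 vehicle group, so their effects are not independent of each other. For the median gene the deposited p is smaller than the normal p of the deposited test statistic. With that normal p, the calls came to 0 with OCA (0.479% of all genes), 2 at the low (1.57%), 3 at the mid (7.02%) and 5 at the high dose (6.35%), and to 2 in each vehicle group against lean control (3.62% and 3.95% of all genes for OCA vehicle and tropifexor vehicle). The genes still called against vehicle were Tnfrsf12a and Tnfsf15 at the low dose, Tnfrsf19, Tnfrsf21 and Tnfsf15 at the mid dose, and these 3 with Tnfrsf12a and Tnfrsf14 at the high dose. Tnfrsf12a was still called in both vehicle groups against lean control, with Tnfrsf19 in OCA vehicle and Tnfrsf10b in tropifexor vehicle livers. The other calls against vehicle, and of vehicle against lean control, rest on the deposited p alone.

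**Figure D2:**
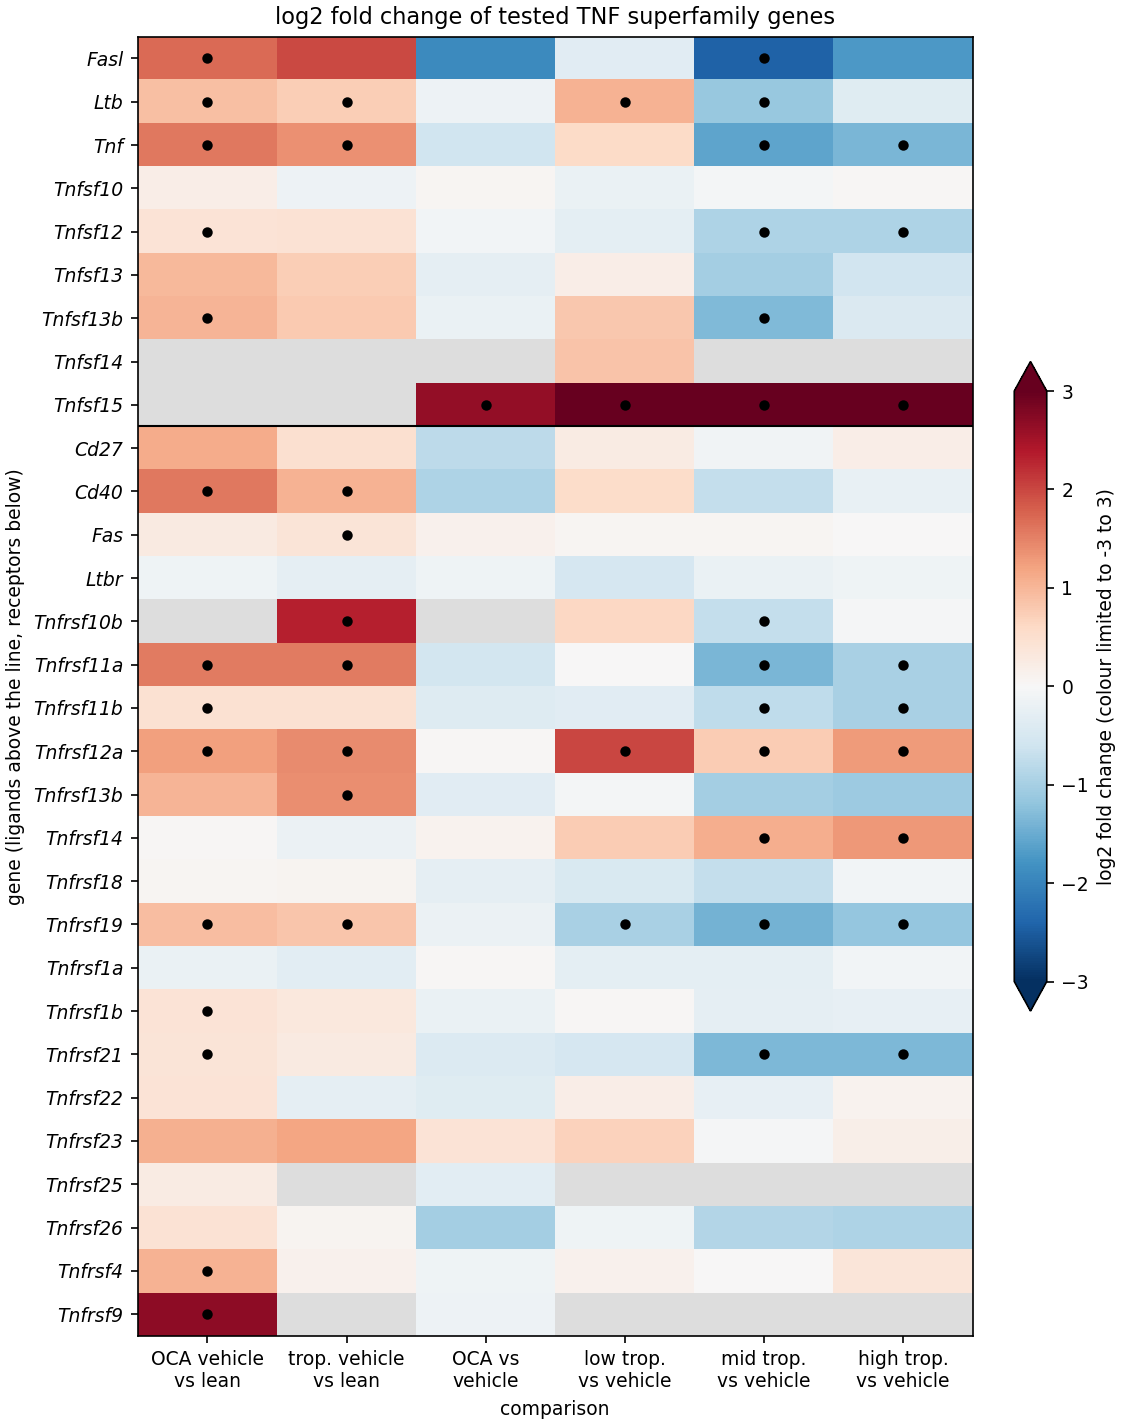
log2 fold changes (colour, limited to -3 to 3) of the 30 genes tested in at least 1 table, ligands above the line and receptors below, in the 2 comparisons of NASH vehicle with lean control and the 4 of drug with vehicle; a dot marks a deposited q under 0.05 and grey a gene not tested. Dots in the 2 diet columns are all on red, Tnfsf15 is called in all 4 drug columns, and 10 dots of the mid-dose column are on blue.

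Tnfsf15 rose with both drugs and at every dose. It encodes TL1A, a ligand of the death domain receptor DR3 that costimulates T cells and innate lymphoid cells. With OCA it was 0.446 FPKM, against 0.0715 FPKM in OCA vehicle livers, a log2 fold change of 2.64 (standard error 0.360, Cuffdiff q 0.00268 in the authors' deposited table), a call that the normal p of the test statistic does not give. Tropifexor gave 0.898 FPKM at the low dose against 0.0441 FPKM with vehicle, 2.34 FPKM at the mid dose against 0.0386 FPKM, and 1.57 FPKM at the high dose against 0.0400 FPKM, in tables that the authors scaled separately. The log2 fold changes were 4.35 (standard error 0.453) at the low, 5.92 (0.387) at the mid and 5.29 (0.409) at the high dose. These are 20.4-fold, 60.7-fold and 39.2-fold. All vehicle values are low, so the size of the fold rests on small numbers: with 0.1 FPKM added to each group the log2 fold changes became 1.67 with OCA, and 2.79, 4.14 and 3.58 at the low, mid and high dose. Set against lean livers, Tnfsf15 was also higher, at 0.415 FPKM with OCA against 0.105 FPKM, and at 0.823, 2.17 and 1.44 FPKM at the low, mid and high dose against 0.112, 0.0987 and 0.103 FPKM in lean control, all called in the authors' deposited tables. The 2 comparisons of vehicle with lean control left Tnfsf15 untested, at 0.0673 FPKM in OCA vehicle against 0.106 FPKM in lean livers, and at 0.0389 FPKM in tropifexor vehicle against 0.107 FPKM in lean livers. Its receptor gene Tnfrsf25 lay between 0.0281 and 0.302 FPKM and was called in none of the deposited tables. Tnfsf8, the ligand gene nearest to Tnfsf15, lies 86.2 kb away on chromosome 4 and stayed untested at 0.0158 to 0.0814 FPKM.

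Tnf, Tnfsf15 and Tnfrsf12a are shown with the DNA before their RefSeq start (build GRCm38.p6) because they took 3 different courses under tropifexor. Each window runs 5′ to 3′ on the gene's strand over 195 bases, from 250 to 56 bases before the start. Capitals mark the letters GGGNNNNNCC, the core of NF-kB sites, and both strands were searched.
Tnfsf15, chr4:63745115-63745309, minus strand: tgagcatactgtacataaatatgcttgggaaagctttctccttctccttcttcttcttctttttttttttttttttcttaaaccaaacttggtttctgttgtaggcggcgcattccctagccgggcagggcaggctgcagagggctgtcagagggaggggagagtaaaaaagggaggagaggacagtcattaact
Tnfrsf12a, chr17:23677505-23677699, minus strand: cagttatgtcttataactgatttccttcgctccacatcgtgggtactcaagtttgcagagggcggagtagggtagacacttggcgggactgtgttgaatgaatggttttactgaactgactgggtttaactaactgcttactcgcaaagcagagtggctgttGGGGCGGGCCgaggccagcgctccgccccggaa
Tnf, chr17:35202063-35202257, minus strand: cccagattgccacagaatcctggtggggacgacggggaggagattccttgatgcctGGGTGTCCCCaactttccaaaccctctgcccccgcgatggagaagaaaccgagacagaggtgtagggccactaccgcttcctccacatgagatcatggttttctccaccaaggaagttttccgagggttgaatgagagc
The window of Tnfsf15 has no such match, and those of Tnfrsf12a and Tnf have 1 each. Of 35 windows of 31 genes of the family, 19 (54.3%) hold the letters, beside 36.3% of all 32851 windows. AGGTCA, the half-site of nuclear receptors, is in 2 of the 35 windows (Tnfrsf13b and Tnfrsf25), beside 11.1% of all windows. None of the 3 printed windows holds it. AGGTCANTGACCT, the inverted repeat that FXR binds, is in 0 of the 35 and in 1 of all windows. These are matches of letters in a short window and no measure of binding.

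Tnf, which encodes the founding cytokine of the family, was higher on the diet and lower at the mid and high tropifexor doses. OCA vehicle livers had 0.788 FPKM, against 0.262 FPKM in lean control, and tropifexor vehicle livers 0.686 FPKM, against 0.263 FPKM (log2 1.59 and 1.38, standard errors 0.289 and 0.308, in the authors' deposited tables). It fell to 0.227 FPKM at the mid dose, against 0.683 FPKM with vehicle, a log2 change of -1.59 (standard error 0.302, Cuffdiff q 3.61e-04). At the high dose it fell to 0.273 FPKM, against 0.711 FPKM with vehicle (log2 -1.38, standard error 0.309). With the normal p of the test statistic, Tnf was called in none of the 10 tables. The low dose gave 1.17 FPKM, against 0.781 FPKM with vehicle, in the other direction and not called (log2 0.58, Cuffdiff q 0.302). OCA gave 0.557 FPKM, against 0.840 FPKM in its vehicle, also not called (log2 -0.59, q 0.262). Against lean control, Tnf was still called higher with OCA (0.518 against 0.259 FPKM) and at the low dose (1.07 against 0.275 FPKM) in the deposited tables. The low and high doses lay on opposite sides of their shared vehicle. The difference of the high and low effects was -1.97 (log2, 95% interval -3.75 to -0.18), which did not pass the adjusted normal test, whereas with the narrower standard error it did (95% interval -2.84 to -1.09).

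Ltb lies 3.06 kb from Tnf on chromosome 17 and encodes the membrane anchor of the lymphotoxin trimer, which signals through Ltbr. It rose on the diet to 1.31 FPKM in OCA vehicle livers, against 0.696 FPKM in lean control, and to 1.16 FPKM in tropifexor vehicle livers, against 0.699 FPKM. The low tropifexor dose raised it to 2.74 FPKM, against 1.32 FPKM with vehicle (log2 1.05, standard error 0.318, Cuffdiff q 0.0194 in the authors' deposited table). The mid dose lowered it to 0.522 FPKM, against 1.15 FPKM with vehicle (log2 -1.14, standard error 0.282, q 0.00128). Ltb was thus the only gene of the family that the deposited tables call higher at 1 tropifexor dose and lower at another. The difference of the mid and low effects was -2.20 (log2, 95% interval -3.90 to -0.50), not called by the adjusted normal test and called with the narrower standard error. OCA left Ltb at 1.25 FPKM, against 1.39 FPKM, and the high dose at 0.926 FPKM, against 1.20 FPKM with vehicle, both not called. No call of Ltb was left with the normal p of the test statistic. Lta, the other lymphotoxin gene in that cluster, lies 1.16 kb from Tnf and was listed at 0.0139 to 0.0413 FPKM. The receptor gene Ltbr was not called against vehicle with either drug, and was called lower than in lean livers at the low dose (41.6 against 70.3 FPKM, log2 -0.76) and at the mid dose (45.4 against 62.2 FPKM, log2 -0.45).

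Tnfsf13b encodes BAFF, a survival factor of B cells, and had its lowest level at the mid dose, as Ltb did. It rose to 0.849 FPKM in OCA vehicle livers, against 0.418 FPKM in lean control, and fell to 0.288 FPKM at the mid dose, against 0.719 FPKM with vehicle (log2 -1.32, standard error 0.361, in the authors' deposited table). Neither call was left with the normal p of the test statistic. Tropifexor vehicle livers had 0.722 FPKM, against 0.420 FPKM in lean control, not called (log2 0.78, Cuffdiff q 0.0864). Not called were 1.43 FPKM at the low dose, against 0.822 FPKM (log2 0.80, q 0.242), and 0.553 FPKM at the high dose, against 0.748 FPKM. B cell markers (Ms4a1, Cd79a, Cd79b, Pax5) had sums of 1.92 to 2.94 FPKM over the 6 tables, with no call by Cuffdiff. Its receptor gene Tnfrsf13b (TACI) rose in tropifexor vehicle livers, at 0.531 FPKM against 0.203 FPKM in lean control, and was not called with either drug against vehicle. A further BAFF receptor gene, Tnfrsf13c, was not tested.

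Fasl, which encodes the ligand that kills cells through Fas and is known from cytotoxic lymphocytes, was low throughout. OCA vehicle livers had 0.259 FPKM, against 0.0803 FPKM in lean control, and the mid dose gave 0.0592 FPKM, against 0.317 FPKM with vehicle, both called (log2 1.69 and -2.42, standard errors 0.849 and 1.04), though not with the normal p. Markers of cytotoxic T cells and NK cells moved alongside: 3 of 4 tested rose in OCA vehicle livers, at a sum of 7.20 FPKM against 2.12 FPKM in lean control, and 4 of 4 fell at the mid dose, at 1.89 FPKM against 5.15 FPKM with vehicle. Their part in the values of Fasl was not tested. Fasl was not called in tropifexor vehicle livers, at 0.318 FPKM against 0.0807 FPKM in lean control (log2 1.98, Cuffdiff q 0.0697). Nor was it called at the high dose, at 0.0996 FPKM against 0.330 FPKM with vehicle (log2 -1.73), or at the low dose (log2 -0.34). With OCA it was 0.0738 FPKM, against 0.276 FPKM in OCA vehicle livers, which missed the threshold (log2 -1.90, Cuffdiff q 0.0888 in the authors' deposited table), where 3 of 4 of these markers fell (3.14 against 7.68 FPKM). Fas was far higher and moved little: the deposited tables give 13.7 FPKM in tropifexor vehicle livers, against 10.5 FPKM in lean control, called at a log2 of 0.39. No drug group differed from its vehicle in Fas by more than 0.14 (log2).

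Tnfsf12, the gene of TWEAK, fell at the mid and high doses. It was 6.49 FPKM at the mid dose, against 12.3 FPKM with vehicle, and 6.78 FPKM at the high dose, against 12.8 FPKM with vehicle (log2 -0.93 and -0.92, standard errors 0.192 and 0.177, in the authors' deposited tables). These levels were also called lower than in lean livers, at 6.01 against 8.51 FPKM for the mid dose and 6.23 against 8.86 FPKM for the high dose. The diet raised it to 12.1 FPKM in OCA vehicle livers, against 9.16 FPKM in lean control. In tropifexor vehicle livers it was 12.4 FPKM, against 9.21 FPKM, not called (log2 0.43, Cuffdiff q 0.0519). None of these calls was left with the normal p. Tnfsf12 and Tnfsf13 (APRIL) share 1 locus with a read-through gene and an antisense gene in the annotation, and reads may be split between them, since strand use in counting was not given. Tnfsf13 was called in no table. Tnfsf10, the gene of TRAIL, lay between 2.00 and 3.18 FPKM and was called in none either, with log2 fold changes from -0.19 to 0.19 in the 6 tables of diet and drug.

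At the mid and high tropifexor doses the receptor of TWEAK moved in the other direction from its ligand. Tnfrsf12a encodes Fn14, a small receptor without a death domain that is known to be induced in regenerating and injured liver. It rose to 9.43 FPKM in OCA vehicle livers, against 4.05 FPKM in lean control, and to 10.8 FPKM in tropifexor vehicle livers, against 4.07 FPKM (log2 1.22 and 1.41, standard errors 0.145 and 0.157). Tropifexor raised it further: to 48.9 FPKM at the low dose, against 12.2 FPKM with vehicle, to 18.3 FPKM at the mid dose, against 10.7 FPKM, and to 27.0 FPKM at the high dose, against 11.1 FPKM, in the authors' deposited tables. The log2 fold changes were 2.00 (standard error 0.192), 0.77 (0.142) and 1.28 (0.139) in that order of doses, so the lowest dose had the highest value. OCA gave 10.4 FPKM, against 10.1 FPKM in its vehicle (log2 0.04, standard error 0.138, q 0.999). Tnfrsf12a was called in 9 of the 10 deposited tables, more than any other gene of the family, and in all 6 tables against lean control it was higher than in lean livers.

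The low-dose effect on Tnfrsf12a exceeded the OCA effect by 1.96 (log2, 95% interval 1.01 to 2.90, adjusted p 0.0168 by a normal test of the difference over all genes), in groups that share no mouse. The doses are not matched, since OCA was given at 25 mg/kg and tropifexor at 0.1 mg/kg. Tnfrsf12a was the 1 gene of 26 tested for that difference that was called, beside 0.418% of all genes. For the high dose minus OCA the difference was 1.23 (95% interval 0.45 to 2.01), not called, and 0 of 26 genes of the family were called (1.69% of all genes), with 5 at an unadjusted p under 0.05. With the narrower standard error, 2 of 26 were called for the low dose minus OCA (5.24% of all genes), Tnfrsf12a and Tnfrsf19. That error gave 6 of 26 for the high dose minus OCA (11.5% of all genes), which were Tnfrsf12a, Tnfrsf14 and Tnfsf15 with the higher effect under tropifexor and Tnfrsf19, Tnfrsf21 and Tnfsf12 with the lower.

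Between doses, the normal test called 0 of 27 genes of the family for high minus low (0.278% of all genes), 0 for mid minus low (0.423%) and 0 for high minus mid (0.319%). At an unadjusted p under 0.05 it found 1, 3 and 0 genes in that order. With the narrower standard error it called 4 for high minus low (5.64% of all genes), 7 for mid minus low (10.3%) and 0 for high minus mid (2.32%). Ltb, Tnf, Tnfrsf12a and Tnfrsf21 had the lower effect at the high dose than at the low dose, and the same 4 with Tnfrsf10b, Tnfrsf11a and Tnfsf13b had it at the mid dose. For Tnfrsf12a the high minus low difference was -0.72 (log2, 95% interval -1.67 to 0.23) and with the narrower error its interval was -1.19 to -0.26. These differences share the vehicle group, which makes the summed variance conservative.

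**Figure D3:**
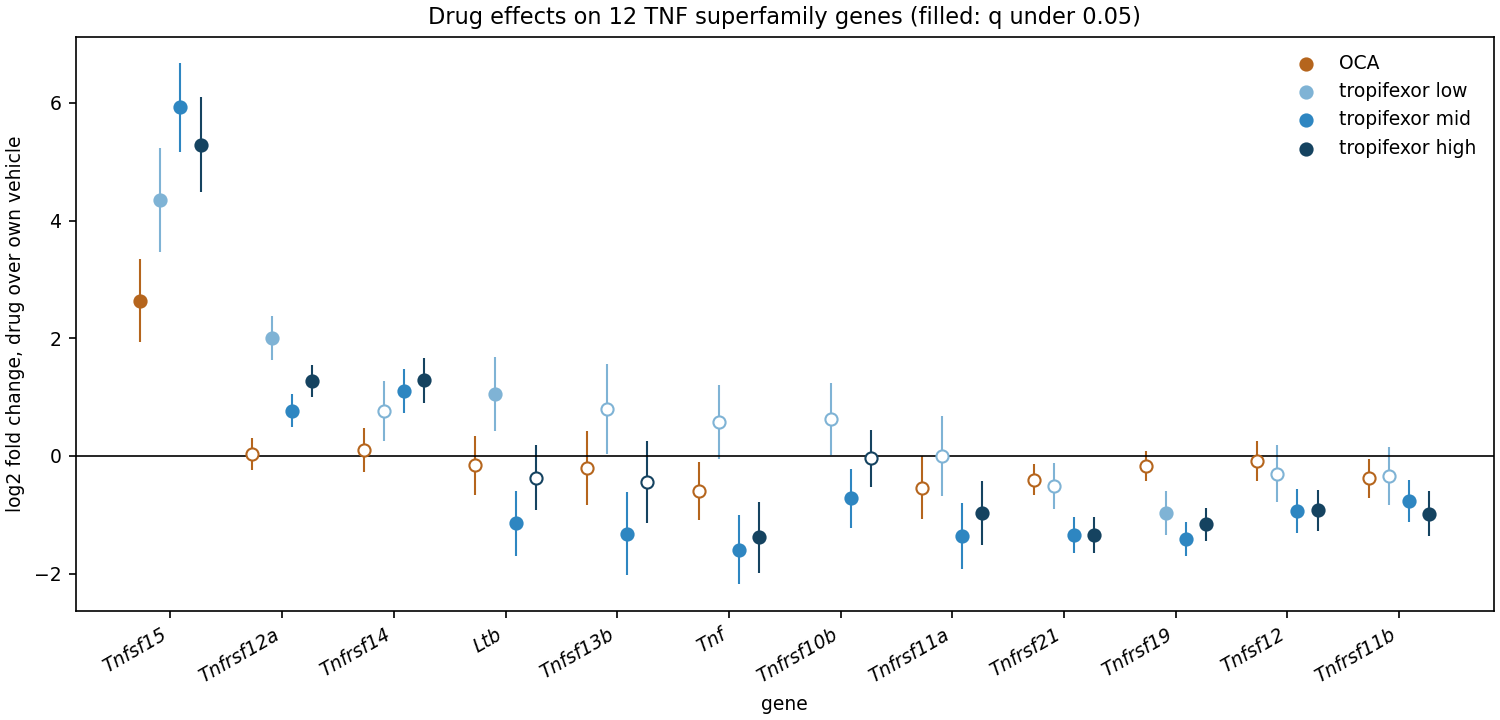
log2 fold change over its own vehicle (vertical axis) of 12 genes of the family with OCA and with low, mid and high tropifexor; bars are 95% intervals from the narrower standard error, filled points have a deposited q under 0.05, and Tnfrsf10b has no OCA point because it was not tested there. Tnfsf15 stands at 2.64 to 5.92 in all 4 groups, Tnfrsf12a is highest at the low dose with 2.00, and Ltb lies at 1.05 at the low and -1.14 at the mid dose.

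Tnfrsf19 (TROY), a receptor known from progenitor and stellate cells, was the 1 gene of the 41 called lower at all 3 doses. It was 2.63 FPKM at the low dose, against 5.15 FPKM with vehicle, 1.69 FPKM at the mid dose, against 4.50 FPKM, and 2.10 FPKM at the high dose, against 4.68 FPKM (log2 -0.97, -1.41 and -1.16, standard errors 0.193, 0.147 and 0.144, in the authors' deposited tables). The diet had raised it to 4.76 FPKM in OCA vehicle livers, against 2.52 FPKM in lean control, and to 4.52 FPKM in tropifexor vehicle livers, against 2.53 FPKM. At the mid dose it was called below lean livers, at 1.56 against 2.34 FPKM (log2 -0.58). OCA gave 4.49 FPKM, against 5.07 FPKM in its vehicle, not called.

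Tnfrsf11a encodes RANK, a receptor of macrophages and osteoclast precursors, and Tnfrsf11b encodes osteoprotegerin, the soluble decoy that blocks the ligand of RANK. Tnfrsf11a rose to 0.768 FPKM in OCA vehicle livers, against 0.262 FPKM in lean control, and to 0.783 FPKM in tropifexor vehicle livers, against 0.263 FPKM. It fell to 0.303 FPKM at the mid dose, against 0.779 FPKM with vehicle, and to 0.414 FPKM at the high dose, against 0.810 FPKM (log2 -1.36 and -0.97, standard errors 0.289 and 0.278, in the authors' deposited tables). At the low dose it was 0.891 FPKM, against 0.890 FPKM with vehicle. Tnfrsf11b also fell, and was 1.08 FPKM at the mid dose, against 1.82 FPKM with vehicle, and 0.962 FPKM at the high dose, against 1.89 FPKM (log2 -0.76 and -0.98, standard errors 0.183 and 0.193). The diet had raised Tnfrsf11b to 1.81 FPKM in OCA vehicle livers, against 1.33 FPKM in lean control (log2 0.45). Tropifexor vehicle livers had 1.83 FPKM, against 1.33 FPKM, not called. High-dose livers were called below lean livers for Tnfrsf11b, at 0.885 against 1.28 FPKM (log2 -0.54). With the normal p neither gene was called in any table. Tnfsf11, the gene of the ligand, was not tested in any table and was listed at 0.00341 to 0.0351 FPKM.

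Among the death domain receptors, Tnfrsf21 (DR6) and Tnfrsf10b (the mouse TRAIL receptor) were called with tropifexor. Tnfrsf21 was 1.35 FPKM at the mid dose, against 3.42 FPKM with vehicle, and 1.41 FPKM at the high dose, against 3.56 FPKM (log2 -1.34 at both doses, standard error 0.159 at both). Both levels were also below lean livers, at 1.25 against 2.63 FPKM for the mid dose and 1.29 against 2.74 FPKM for the high dose, each called at a log2 of -1.08 in the authors' deposited tables. Low-dose livers had 2.74 FPKM, against 3.91 FPKM with vehicle, not called (log2 -0.51, q 0.0959). The diet had raised Tnfrsf21 to 3.71 FPKM in OCA vehicle livers, against 2.83 FPKM in lean control (log2 0.39). Tropifexor vehicle livers had 3.44 FPKM, against 2.84 FPKM, not called. Tnfrsf10b rose on the diet to 0.375 FPKM in tropifexor vehicle livers, against 0.0744 FPKM in lean control, a log2 fold change of 2.34 (standard error 0.317). The mid dose lowered it to 0.227 FPKM, against 0.373 FPKM with vehicle (log2 -0.72), while the low dose gave 0.659 FPKM, against 0.427 FPKM, not called. OCA vehicle livers had 0.195 FPKM, against 0.0740 FPKM in lean control, and the gene was not tested there.

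Tnfrsf14 (HVEM), a receptor for LIGHT that also binds the inhibitory receptor BTLA, rose with tropifexor and was not called with the diet. It was 11.6 FPKM at the mid dose, against 5.42 FPKM with vehicle, and 13.8 FPKM at the high dose, against 5.64 FPKM (log2 1.10 and 1.29, standard errors 0.190 and 0.195, in the authors' deposited tables). The low dose gave 10.5 FPKM, against 6.19 FPKM with vehicle, which missed the threshold (log2 0.76, q 0.0552), and OCA gave 7.18 FPKM, against 6.68 FPKM in its vehicle. Vehicle livers did not differ from lean livers by more than 0.18 (log2). The mid and high doses were called above lean livers as well (10.7 against 5.69 FPKM and 12.7 against 5.92 FPKM). Its ligand gene Tnfsf14 (LIGHT) was tested in 1 table only, at 0.248 FPKM at the low dose against 0.138 FPKM with vehicle, not called.

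There were 11 receptors of lymphocytes and antigen-presenting cells, Tnfrsf14 included. Against lean control, 4 of 8 tested rose in OCA vehicle livers and 2 of 7 in tropifexor vehicle livers. Of all genes, 11.4% and 12.1% rose in those comparisons. Tnfrsf14 was the 1 of them called with a drug against vehicle. It was called at the mid and high doses, where 11.8% and 9.93% of all genes rose. Cd40, the costimulatory receptor of B cells and macrophages, was 1.91 FPKM in OCA vehicle livers, against 0.641 FPKM in lean control, and 1.33 FPKM in tropifexor vehicle livers, against 0.644 FPKM (log2 1.58 and 1.05). With OCA it was 1.07 FPKM, against 2.04 FPKM in OCA vehicle livers (log2 -0.93, q 0.0975 in the authors' deposited table). Tnfrsf1b rose to 11.9 FPKM in OCA vehicle livers, against 8.91 FPKM in lean control (log2 0.42). Tnfrsf4 (OX40), a costimulatory receptor of T cells, rose to 0.795 FPKM in OCA vehicle livers, against 0.385 FPKM, but was 0.423 FPKM in tropifexor vehicle livers, against 0.387 FPKM in lean control. Tnfrsf9 (4-1BB), another of these, is called in OCA vehicle livers at 0.274 FPKM, against 0.0429 FPKM in lean control, although its standard error of 3.18 is wider than its log2 fold change of 2.68. Tnfrsf9 overlaps Camta1 in the annotation. Cd40lg, the ligand of Cd40, was not tested. The decoy receptor genes Tnfrsf22 and Tnfrsf23 share 1 locus with Tnfrsf26. Of these only Tnfrsf23 was called, at the low dose against lean control (1.56 against 0.424 FPKM).

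Each drug group was also compared with lean livers. OCA livers had 6 of 24 tested genes of the family called, all higher (16.8% of all genes called, 10.3% higher and 6.50% lower). Low-dose livers had 10 higher and 1 lower of 27 (23.8% of all genes, 13.8% higher and 10.1% lower), mid-dose livers 4 higher and 4 lower of 22 (23.1%, 11.7% higher and 11.5% lower), and high-dose livers 5 higher and 3 lower of 25 (27.3%, 12.2% higher and 15.2% lower). With the normal p of the test statistic the calls came to 1 with OCA (3.25% of all genes), 3 at the low (5.12%), 3 at the mid (6.69%) and 5 at the high dose (8.82%). The 4 higher at the mid dose were Fas, Tnfrsf12a, Tnfrsf14 and Tnfsf15, and the high dose had those and Tnfrsf10b. Lean livers are the shared group of all these tables.

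NF-kB and TNF target genes were mostly higher on the diet and lower at the mid and high doses. Of 16 NF-kB and TNF target genes, 9 rose in OCA vehicle and 10 in tropifexor vehicle livers against lean control, of 13 tested in each (medians 1.38 and 1.34 on the log2 scale, beside 0.02 and 0.01 for all genes). Of all genes, 11.4% and 12.1% rose in those 2 comparisons. At the low tropifexor dose 3 of 14 tested rose against vehicle, namely Ccl2 (log2 0.88), Lcn2 (0.64) and Icam1 (0.63). There, 6.03% of all genes rose. At the mid dose 10 of 13 fell and 1 rose, with Lcn2 at -2.83, Sele at -2.19 and Cxcl1 at -2.07, where 15.7% of all genes were lower. The riser was Sod2, a mitochondrial antioxidant enzyme named after its value was seen, at 0.36. At the high dose 9 of 13 fell, with Lcn2 at -2.09, Cxcl1 at -2.03 and Sele at -2.01, where 15.5% of all genes were lower. OCA lowered 2 of 13, Ccl5 (-1.39) and Saa3 (-1.07), where 2.23% of all genes were lower. The list medians were -0.20 with OCA, and 0.42, -1.57 and -1.40 at the low, mid and high dose in the authors' deposited tables. Lcn2 is an iron-scavenging acute phase protein, Sele an adhesion molecule of activated endothelium, and Cxcl1 a neutrophil chemokine.

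Among 13 NF-kB subunits and feedback inhibitors, 4 rose at the low dose, where 6.03% of all genes did, and 4 fell at the mid dose, where 15.7% did. The risers with the largest change were Tnip1 (log2 1.17), Relb (1.01) and Nfkb2 (0.86), and the remaining riser was Nfkbie. Tnip1 and Nfkbie are among the feedback inhibitors of the list. Relb and Nfkb2 are the subunits of the noncanonical pathway used by Ltbr, Fn14 and the BAFF receptor. The part of that pathway in these values was not tested. At the mid dose Tnfaip3 (-1.15), Nfkbie (-0.92) and Relb (-0.84) fell most against vehicle, and Tnfaip3 and Nfkbie encode brakes on NF-kB. The high dose had 4 lower and 1 higher of 13, where 15.5% of all genes were lower and 9.93% higher. On the diet 5 rose in OCA vehicle and 6 in tropifexor vehicle livers, where 11.4% and 12.1% of all genes rose. Nfkb2, Relb, Nfkbie and Tnip1 were among them in both vehicle groups. Map3k14, the kinase that starts the noncanonical pathway, rose at the low dose (0.69 on the log2 scale). It was the 1 gene called there of 25 adaptors, kinases and ligases, no larger a share than the 6.03% of all genes that rose. In that list 3 of 25 fell at the mid dose, no larger a share than the 15.7% of all genes, namely Ripk3, Mlkl and Traf3 (-0.74, -0.74 and -0.52), and its median was -0.01 there. Ripk3 and Mlkl are known to carry out necroptosis. In the high-dose table Ikbkb (0.55) and Traf2 (0.42) rose and Mlkl (-0.57) fell, beside 9.93% of all genes higher and 15.5% lower. Of 12 death receptor apoptosis genes, 2 fell at the mid dose, where 15.7% of all genes were lower, and 4 fell at the high dose, where 15.5% of all genes did. Casp8, the initiator at these receptors, fell at both (-0.58 and -0.90), as did Bax, which opens mitochondria to cytochrome c (-0.69 and -0.49). Cflar, the inhibitor of Casp8, fell at the high dose (-0.67). Of 4 genes for the shedding of ligands and receptors, the mid dose lowered Rhbdf1 and Adam10, where 15.7% of all genes were lower. The high dose lowered Adam10 alone, where 15.5% of all genes were lower. Rhbdf1 alone rose in both vehicle groups against lean control, where 11.4% and 12.1% of all genes rose. Adam17, the main TNF sheddase, was called in none of the 6 tables. Outside the symbol rule, Eda2r fell at the mid and high dose (-2.11 and -1.66) and Ngfr at all 3 doses (-0.91, -1.32 and -1.35).

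**Figure D4:**
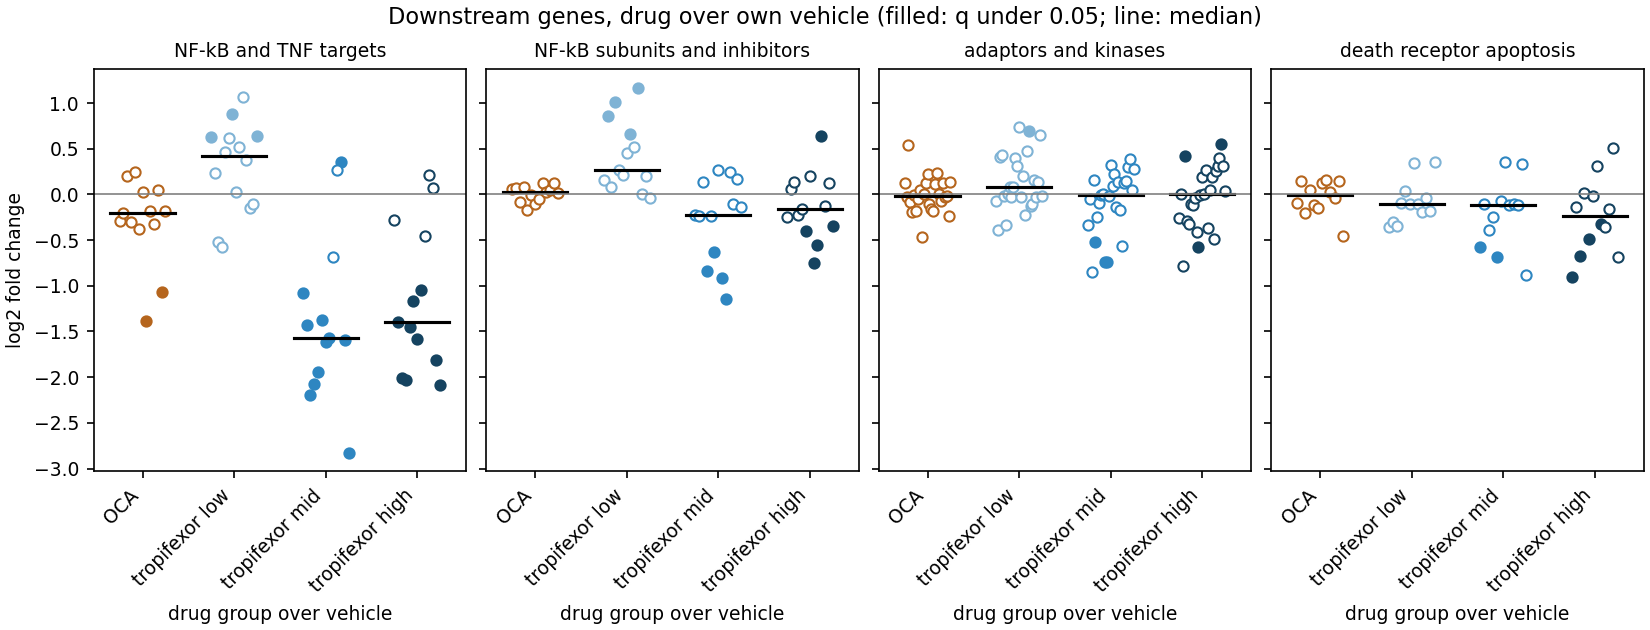
log2 fold change over own vehicle (vertical axis) of the tested genes of 4 downstream lists with OCA and with low, mid and high tropifexor; each point is 1 gene, filled where the deposited q is under 0.05, and the line is the list's median. The median of NF-kB and TNF targets is 0.42 at the low, -1.57 at the mid and -1.40 at the high dose.

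Markers of several cell types moved with these genes. In bulk liver, fewer cells of a type and less RNA per cell cannot be told apart. Against vehicle, 2.23% of all genes were lower with OCA, and 5.20%, 15.7% and 15.5% at the low, mid and high dose. Higher were 1.81% with OCA and 6.03% at the low dose. Against lean control, 11.4% and 12.1% were higher in OCA vehicle and tropifexor vehicle livers. All 6 macrophage markers rose in both vehicle groups against lean control, at sums of 265 FPKM in OCA vehicle against 91.3 FPKM in lean livers and 262 FPKM in tropifexor vehicle against 91.7 FPKM. At the mid dose 6 of 6 fell (118 FPKM against 261 FPKM with vehicle) and at the high dose 5 of 6 (176 against 271 FPKM), while the low dose raised 1, Cd14 (364 against 298 FPKM), and OCA lowered 2 (218 against 282 FPKM). Of 6 T cell markers, 5 fell at the mid dose (2.90 against 6.90 FPKM), 2 at the high dose (6.84 against 7.19 FPKM) and 3 with OCA (5.93 against 11.1 FPKM), and at the low dose their sum was 10.0 against 7.89 FPKM with vehicle. Neutrophil markers fell at the mid dose in 3 of 3 tested (4.14 against 10.2 FPKM), and Ly6g of that list was listed at 0 in tropifexor vehicle, mid-dose, high-dose and lean livers. Of 5 cholangiocyte markers, 4 rose at the low dose (Epcam, Krt19, Sox9 and Spp1, at a sum of 311 FPKM against 196 FPKM with vehicle), 2 fell at the mid dose (70.3 against 172 FPKM), 1 fell at the high dose (115 against 179 FPKM) and 2 rose with OCA (208 against 138 FPKM). Stellate cell and myofibroblast markers fell in 3 of 6 at the low dose (47.4 against 128 FPKM), 5 of 6 at the mid dose (21.7 against 112 FPKM) and 5 of 6 at the high dose (23.7 against 116 FPKM). With OCA their sum was 88.9 FPKM, against 93.9 FPKM in its vehicle. Endothelial markers fell in 4 of 5 at the mid dose (28.3 against 40.0 FPKM), 3 of 5 at the high dose (32.7 against 41.6 FPKM), 1 of 5 at the low dose (33.6 against 45.7 FPKM) and 2 of 5 with OCA (35.1 against 45.7 FPKM). Of 3 dendritic cell markers tested, 2 rose in each vehicle group and 2 fell at the mid dose (2.69 against 5.60 FPKM) and 1 at the high dose (3.14 against 5.83 FPKM). Kupffer cell markers fell in 3 of 5 at the mid dose (110 against 183 FPKM) and 3 of 5 with OCA (133 against 220 FPKM). At the low and high doses only Cd5l of the 5 was called, lower, and the list medians were -0.26 and 0.07 (log2). Cytotoxic T cell and NK cell markers also fell at the high dose, in 2 of 4 (2.91 against 5.36 FPKM), and at the low dose none of 6 was called by Cuffdiff (6.08 against 5.88 FPKM). Of 5 hepatocyte markers, 4 fell in tropifexor vehicle livers against lean control (41591 against 70926 FPKM). In OCA vehicle livers 0 were called, at a similar sum (45443 against 70559 FPKM). Against vehicle, Cps1 and Hnf4a rose and Ttr fell at the mid dose (49243 against 41416 FPKM) and at the high dose (42629 against 43099 FPKM). Ttr also fell at the low dose, and 0 were called with OCA. These sums come from the authors' deposited tables, and their part in the values of Tnf, Ltb, Tnfsf13b, Tnfsf12, Tnfrsf11a, Tnfrsf12a, Tnfrsf19 and the NF-kB targets was not tested. Tnfsf15 and Tnfrsf14 were higher at the mid dose, and the part of cell content in their values was not tested either. At that dose the macrophage, T cell, neutrophil and stellate cell sums were lower than with vehicle, and the hepatocyte sum was higher.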

How the data were processed

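RNA of 28 mouse livers was sequenced after library preparation with a stranded TruSeq kit, as the labels' protocols say. The submitters' processing notes name bcl2fastq, STAR 2.5.1b, Cufflinks 2.2.1, Cuffnorm, Cuffdiff and the build GRCm38, with no role or order, and strand use in counting was not given in the sources used here. The 10 pairwise gene tables that the authors deposited were used. FPKM values in them are the authors' values of whole groups, per the file headers. The deposited log2 fold change is the ratio of both FPKM values. The test statistic is a score the authors deposited, and the p-value and q-value are the authors' Cuffdiff output, with a smallest p of 5e-05. Since replicates were pooled before deposit, p-values rest on the authors' model of the spread between mice.

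The tables were scaled separately. Levels were taken from the tables against lean control and put on 1 scale by the median log2 ratio of their shared lean group. Such ratios of the vehicle groups settled which vehicle each drug table used. The deviation over genes was at most 9.80e-04 (log2) from the matched vehicle and at least 0.0914 from the other. A normal test compared effects, with standard errors from fold change over test statistic, summed variances and Benjamini-Hochberg adjustment over all genes, after it had been tested on simulated data. The simulated data drew independent noise from those same standard errors, so they could not show whether the errors are right. The shared vehicle group was not simulated. Mid minus low and high minus mid were added after seeing the data. The members and lists were chosen with earlier results of these data known. Of the listed downstream and marker genes, 3 are not reported here and were left out of their lists. Values are given for each gene called in at least 1 of the 6 tables of diet and drug and for Tnf, Tnfrsf1a, Fas, Tnfsf10, Tnfrsf10b and Tnfrsf12a, which made 21, and for up to 3 called genes of each downstream list with the largest change, the rest by counts and ranges. Coordinates are those of the tables, and 99.0% of the gene IDs are in GENCODE M21. Promoter windows came from RefSeq (GRCm38.p6) and 31 of the 41 genes had one. Alternatives were a q under 0.01, an FPKM of at least 1, a 2-fold minimum, the normal p of the test statistic, pseudocounts of 0.1 and 1, centring on the median gene and a rescaled standard error. Python 3.11.15, pandas 2.3.3, numpy 2.4.6, scipy 1.17.1 and matplotlib 3.10.9 were used.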

Additional observations from a re-analysis of the deposited data

Results flagged for a closer look

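The effect of low-dose tropifexor on Tnfrsf12a (log2 2.00 over its vehicle) and that of OCA (log2 0.04 over its vehicle) differed by 1.96 (95% interval 1.01 to 2.90), and the test of that difference passed the adjusted threshold (adjusted p 0.0168). The difference was also called among genes with an FPKM of at least 1 and with the narrower standard error. Of 5 cholangiocyte markers, 4 rose at the low dose and 2 with OCA, and their part in this difference was not tested.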

How the results depend on the processing

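No paired analysis was possible because the tables hold 1 value per group and none per mouse. Leaving out each replicate in turn was not run for that reason, and the dependence on single mice is unknown. Depth is not given and low FPKM values limit what can be seen of most ligands.

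Counts of called genes moved most with the normal p of the test statistic: to 0 with OCA, 2 at the low, 3 at the mid and 5 at the high dose against vehicle, to 2 in OCA vehicle and 2 in tropifexor vehicle against lean control, and to 1 with OCA, 3 at the low, 3 at the mid and 5 at the high dose against lean control. The calls left against vehicle were Tnfrsf12a and Tnfsf15 at the low dose, Tnfrsf19, Tnfrsf21 and Tnfsf15 at the mid dose, and Tnfrsf12a, Tnfrsf14, Tnfrsf19, Tnfrsf21 and Tnfsf15 at the high dose. With an FPKM of at least 1 in either group, the counts were 0 for OCA and 8 for the mid dose against vehicle, 8 for OCA vehicle, 3 for OCA and 7 for the low dose against lean control, with fewer genes tested. A q under 0.01 left 8 for OCA vehicle, 5 for tropifexor vehicle and 3 for OCA against lean control, and a 2-fold minimum 8 for OCA vehicle, 3 for the mid and 5 for the high dose against lean control. The rescaled standard error gave 6 differing genes for high dose minus OCA, 2 for low dose minus OCA, 4 for high minus low and 7 for mid minus low. The other counts stayed within 1.5 times. Of 118 log2 fold changes of named genes, 0 changed sign, 7 moved beyond their standard error with a pseudocount of 0.1, 49 with a pseudocount of 1 and 0 with centring on the median gene. Where no construction shows it, the cause was not tested.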
